A study of Arabidopsis thaliana with 12 samples.

Results

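The genes described here are the photosynthesis genes that Arabidopsis keeps in its plastid genome, as measured on ATH1 expression arrays. They were taken from the array annotation as the probe sets with 1 gene symbol that begins with psa, psb, pet or ndh in lower case, or that is rbcL, ycf3, ycf4 or a plastid atp gene. This gave 45 probe sets of 22746 tested, each for a different gene, and the locus table placed all 45 on the plastid genome. Of 46 genes listed for these complexes, ndhB was left out because its probe set names both of its copies. The 45 fell into 7 groups by function: photosystem I (5), its assembly factors (2), photosystem II (15), the cytochrome b6f complex (6), the NADH dehydrogenase-like complex (10), ATP synthase (6) and Rubisco (1). By gene order they belonged to 18 transcription units, of which 11 held at least 2 measured genes.

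Chloroplast complexes are built from subunits of both genomes: the plastid encodes most reaction centre and catalytic core subunits, and the nucleus encodes the rest. Plastid genes are largely transcribed together in units that resemble bacterial operons, by a bacterial-type polymerase steered by nuclear sigma factors and by a phage-type polymerase. The long transcripts are then cut, spliced, edited and degraded with the help of nuclear RNA-binding proteins, so the RNA level of each gene depends on more than its promoter. Cytokinin is known to promote greening and chloroplast development.

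RNA came from the aerial parts of seedlings aged 2 weeks, grown on agar. Wild type was the accession Col-0, and the mutant is labelled with the insertion lines SALK_098604 and SALK_054752, known as lines of ARR10 and ARR12. These are type-B response regulators, transcription factors of the cytokinin pathway. It is not stated in the labels if the insertions were combined in the same plants, and each gene is represented by 1 line. The spray, for 1 h, held either the cytokinin trans-zeatin (tZ) at 20 µM or 0.02% DMSO, which the labels name only for the control groups. Each of the 4 groups held 3 arrays, and nothing says that these were separate cultures. The p-values therefore reflect how far arrays of a group differ, which may be technical.

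Values are MAS5 signals, a brightness per probe set on a linear scale, and changes are differences of log2(signal + 10), which understates the change of dim probe sets. A gene is said to rise or fall where its adjusted p (limma, Benjamini-Hochberg over all 22746 probe sets) was below 0.05. Signals of different probe sets are not compared as levels. Signals of the 45 genes ran from 16 to 6845 over all arrays, above 11.2, the highest signal of 27 probe sets for bacterial genes expected to be absent. The shoot genes RCA (4577 to 5685) and LHCB4.1 (4365 to 5389) were bright on every array, and the root-enriched PYK10 also read 483 to 1271. In whole shoots, less RNA per cell and fewer cells with the RNA cannot be told apart. The primer used in labelling is not given, and how far signal follows the amount of each plastid RNA was not tested.

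The arrays of the 2 treatments also differed in a measure of RNA or labelling quality. The 5' to 3' signal ratio was 0.252 to 0.328 for actin on the tZ arrays and 0.0409 to 0.0579 on the DMSO arrays, with no overlap. GAPDH (0.704 to 0.837 against 0.226 to 0.294) and ubiquitin (0.591 to 0.72 against 0.198 to 0.227) were divided in the same way. Every comparison of tZ with DMSO below is therefore also a comparison of these array sets, and treatment and array set cannot be told apart in it. Comparisons of genotypes lie within 1 treatment, but some ratios divided the genotypes there too. Under tZ, GAPDH was 0.787 to 0.837 in wild type and 0.704 to 0.747 in the mutant. Under DMSO, ubiquitin was 0.198 to 0.206 in wild type and 0.216 to 0.227 in the mutant. The other ratios overlapped between the genotypes.

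A single array stood apart for some of the genes. On mutant tZ replicate 1, 9 of the 45 genes (ndhG, ndhF, psbN, psbT, petD, petN, petG, ycf3 and atpI) read more than 1.5-fold above both other arrays of the group, against 0.637% of all probe sets. On each of the other 11 arrays 0 or 1 of the 45 did so, where 0.281% to 1.53% of all probe sets did. The same array read 104.1 for 5S rRNA, where the other mutant tZ arrays read 32.5 and 25.01. Values of these 9 genes in the mutant are given with and without that array.

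**Figure D1:**
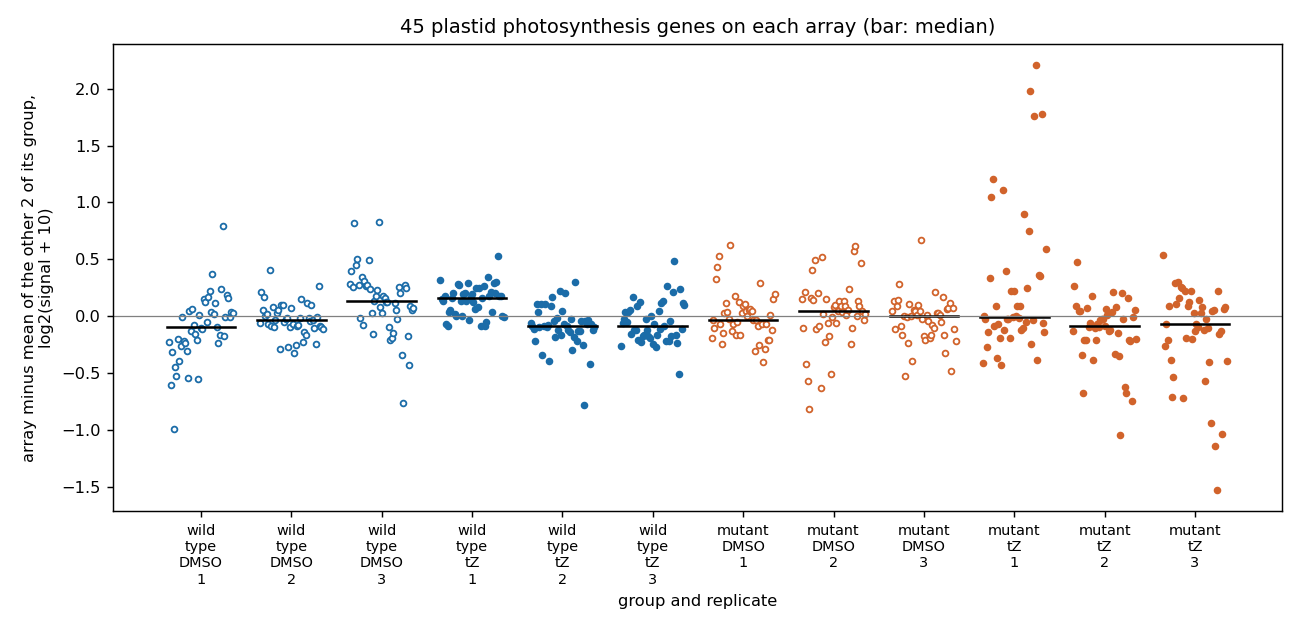
Each point is 1 of the 45 genes on 1 array, plotted as its log2(signal + 10) minus the mean of the other 2 arrays of its group, with the median of the 45 as a bar. Mutant tZ replicate 1 has 9 genes more than 1.5-fold above both of its partners while its median stays near 0, and no other array has more than 1 such gene.

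After tZ in wild type, 33 of the 45 genes passed the test, 11 higher and 22 lower. Calls were common on these arrays, at 43.6% of all probe sets (18.2% higher and 25.4% lower). The median change of the 45 was -0.27 on the log2 scale and that of all probe sets -0.08. Changes ran from -2.93 for ndhG to 1.5 for petL. Changes of at least 2-fold downward, called or not, were found for 8 of the 45, against 3.53% of all probe sets, and changes of that size upward for 4, against 5.16%. The groups did not overlap for 11 genes that were higher and 22 that were lower, against 20.7% and 29.6% of all probe sets.

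In the mutant 33 genes also passed, 7 higher and 26 lower, beside 42.8% of all probe sets (17.9% higher and 24.9% lower). The median change was -0.40, against -0.07 for all probe sets. The shares of all probe sets called in each genotype also stand beside the counts by complex and by list below. Without mutant tZ replicate 1 there were 34 calls, 6 higher and 28 lower. Changes of at least 2-fold downward were found for 8 genes, of which ndhF did not pass, against 3.15% of all probe sets, and changes of that size upward for 2, against 5.03%. The split depends on what the change is relative to. With each array centred on the median of the 45 genes, which moves the median change of all probe sets in wild type from -0.08 to 0.37, 17 genes were higher and 10 lower in wild type, and 15 were higher and 10 lower in the mutant. That centring turned the sign of 13 of the 45 changes in each genotype. It also ended calls without a turn of sign, for ndhA, ndhE, ndhF, ndhI, petN, psbJ and psbZ in wild type and for atpA, ndhA, ndhC, ndhD, ndhE, ndhI, petD, petN, psbI and psbK in the mutant. New calls without a turn of sign were those of atpB, atpH, ndhJ and psbC in wild type and of atpH, psaI, psbA and rbcL in the mutant, all higher.

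The median log2 signal of the 45 genes was 9.80 to 10.00 on the wild type DMSO arrays and 9.39 to 9.61 on the wild type tZ arrays. It was 9.93 to 10.01 on the mutant DMSO arrays and 9.41 to 9.63 on the mutant tZ arrays. All 6 tZ arrays thus lay below all 6 DMSO arrays in this median, while single genes moved by several-fold either way.

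**Figure D2:**
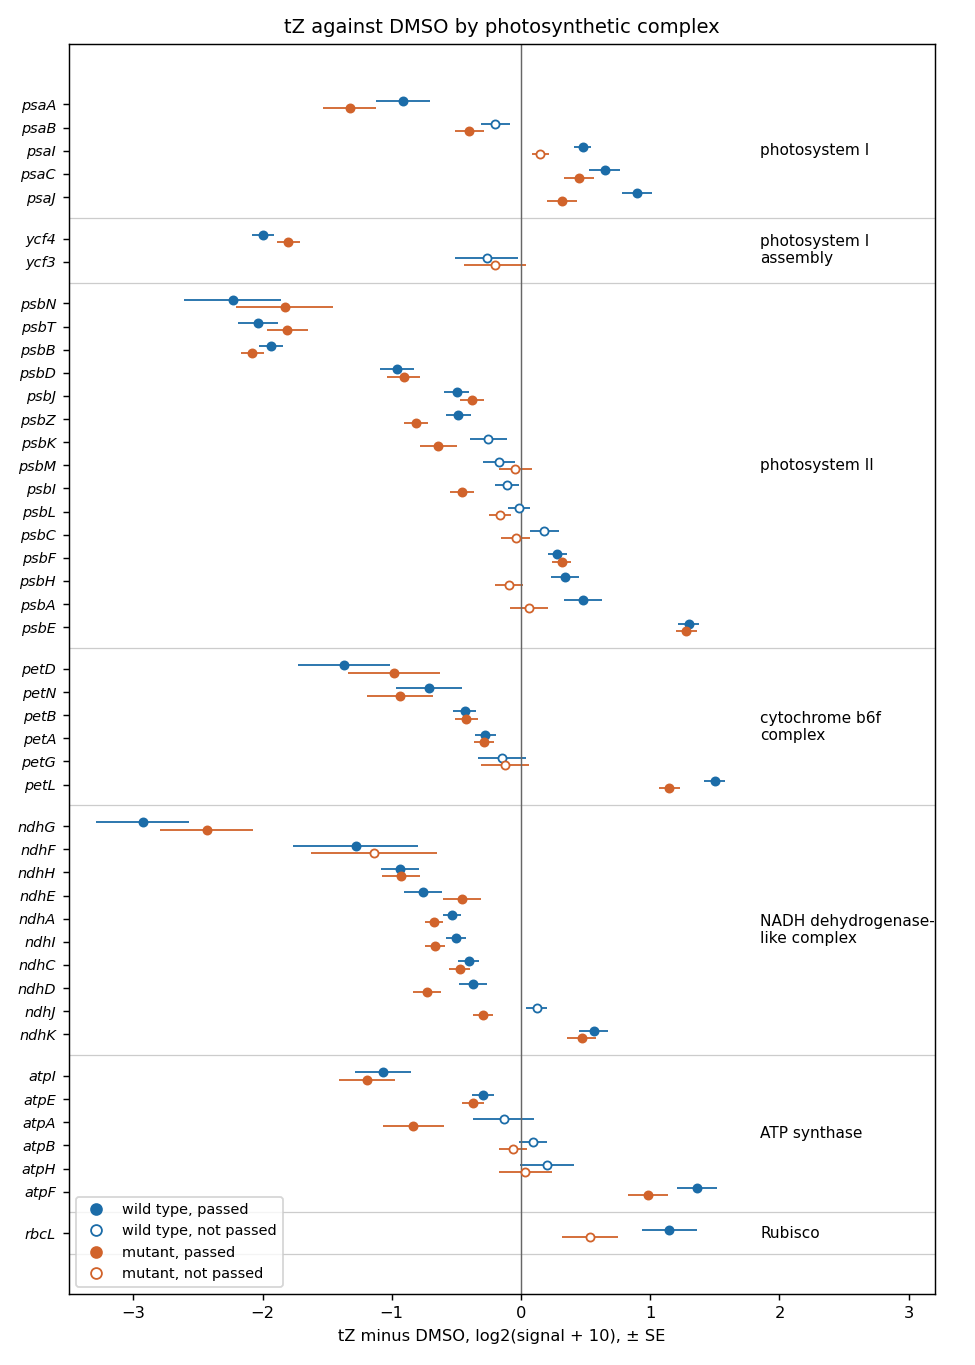
Each row is 1 gene with its log2 change after tZ in wild type (blue) and in the mutant (orange), bars being SE from the fit on 3 arrays a group, and filled points having an adjusted p below 0.05. Genes of 1 complex spread to both sides of 0: photosystem II ran from -2.23 (psbN) to 1.3 (psbE) in wild type. With each array centred on the 45 genes, 13 genes change sign in each genotype.

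Photosystem I takes electrons from plastocyanin and passes them to ferredoxin. In wild type 3 of its 5 measured genes rose and 1 fell, with a median change of 0.48, and in the mutant 2 rose and 2 fell, with a median of 0.15. psaA, which encodes a reaction centre protein, read 253, 336 and 414 on the wild type DMSO arrays, 193, 139 and 179.6 on the wild type tZ arrays, 600.1, 332 and 447 on the mutant DMSO arrays and 139, 188 and 194 on the mutant tZ arrays. All tZ arrays lay below all DMSO arrays in each genotype. psaA's log2 change after tZ was -0.92 ± 0.21 in wild type (SE, n = 3 against 3, limma adjusted p = 0.0024) and -1.33 ± 0.21 in the mutant (limma adjusted p = 0.00012).

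psaJ, a small membrane subunit, went the other way. It read 2227, 1683 and 1753 on the wild type DMSO arrays, 3951, 3216 and 3366 on the wild type tZ arrays, 2227, 2674 and 2829.8 on the mutant DMSO arrays and 3117, 3316 and 3154 on the mutant tZ arrays. The tZ arrays were higher in each genotype without overlap, and the mutant DMSO arrays lay mostly above the wild type ones. psaJ's log2 change after tZ was 0.90 ± 0.12 in wild type (SE, n = 3 against 3, limma adjusted p = 2.1e-05) and 0.32 ± 0.12 in the mutant (limma adjusted p = 0.042). The mutant call for psaJ is lost without wild type tZ replicate 3, any mutant tZ array, or mutant DMSO replicate 1 or 2, with changes of 0.22 to 0.35 and limma adjusted p of 0.053 to 0.18, and with variances fitted without a trend (0.32, limma adjusted p = 0.068).

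psaB, the partner of psaA in the reaction centre, went from 4262 ± 563 to 3709 ± 440.4 in wild type and from 4489 ± 203 to 3409 ± 369 in the mutant (SD, n = 3). It fell in the mutant by 0.40 on the log2 scale (limma adjusted p = 0.01), a fall that turns to 0.04 when arrays are centred on the 45 genes, and did not pass in wild type (-0.20, 0.19). The mutant call for psaB is lost without mutant tZ replicate 1 (-0.34, limma adjusted p = 0.051), and wild type passes without DMSO replicate 1 (-0.30, 0.049). psaC, the iron-sulphur subunit that hands electrons to ferredoxin, rose by 0.65 in wild type (limma adjusted p = 0.00045) and 0.45 in the mutant (0.0069). psaI, another small subunit, rose by 0.48 in wild type (limma adjusted p = 3e-05), and its 0.15 in the mutant did not pass (0.079), though it did with arrays scaled to a common median (0.19, limma adjusted p = 0.033) and with only the mutant groups in the fit (0.050). Its mutant change also passed with arrays centred on the 45 genes (0.59, limma adjusted p = 0.00013).

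Of the factors that assemble photosystem I, ycf4 fell and ycf3 did not pass. ycf4 read 1045, 1131 and 1109 on the wild type DMSO arrays, 294, 273 and 238 on the wild type tZ arrays, 1091, 1089.7 and 968 on the mutant DMSO arrays and 327, 282 and 276 on the mutant tZ arrays. The groups were tight and far apart, with every tZ array below every DMSO array. ycf4's log2 change after tZ was -1.99 ± 0.09 in wild type (SE, n = 3 against 3, limma adjusted p = 1.4e-09) and -1.8 ± 0.09 in the mutant (limma adjusted p = 3.5e-09). In fold terms this was 3.98-fold lower in wild type and 3.48-fold lower in the mutant.

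ycf3 read 306, 260.3 and 336 on the wild type DMSO arrays, 264, 258 and 222 on the wild type tZ arrays, 378, 512 and 333 on the mutant DMSO arrays and 586, 289 and 246 on the mutant tZ arrays. The groups overlapped in each genotype, and mutant tZ replicate 1 was the highest of all 12 arrays. ycf3's log2 change after tZ was -0.27 ± 0.24 in wild type (SE, n = 3 against 3, limma adjusted p = 0.43) and -0.20 ± 0.24 in the mutant (limma adjusted p = 0.57). Without that array the mutant value was -0.57 (limma adjusted p = 0.011).

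Photosystem II splits water and holds 15 of the measured genes. In wild type 4 rose and 6 fell, with a median change of -0.17, and in the mutant 2 rose and 8 fell, with a median of -0.38. The largest falls were in psbN, psbT and psbB, which lie side by side on the genome. psbN, a gene for an assembly factor on the strand opposite to its neighbours, read 358, 395 and 369.8 on the wild type DMSO arrays, 86, 66.9 and 63.9 on the wild type tZ arrays, 395, 499 and 448 on the mutant DMSO arrays and 309.9, 69.1 and 73.3 on the mutant tZ arrays. Apart from mutant tZ replicate 1, every tZ array lay far below every DMSO array. psbN's log2 change after tZ was -2.23 ± 0.37 in wild type (SE, n = 3 against 3, limma adjusted p = 0.00021) and -1.83 ± 0.37 in the mutant (limma adjusted p = 0.0011). Without replicate 1 the mutant change was -2.49 (limma adjusted p = 2.8e-08).

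psbT, a small subunit, read 909, 798 and 883 on the wild type DMSO arrays, 198, 182 and 231 on the wild type tZ arrays, 932, 996 and 982 on the mutant DMSO arrays and 385, 228 and 223 on the mutant tZ arrays. Again the groups did not overlap and mutant tZ replicate 1 lay above its partners. psbT's log2 change after tZ was -2.04 ± 0.16 in wild type (SE, n = 3 against 3, limma adjusted p = 1.5e-07) and -1.81 ± 0.16 in the mutant (limma adjusted p = 4.7e-07). Without replicate 1 the mutant change was -2.06 (limma adjusted p = 1.8e-08).

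psbB encodes CP47, an inner antenna protein that binds chlorophyll. psbB went from 1157 ± 70.2 to 297 ± 39.1 in wild type and from 1303 ± 18.4 to 302 ± 32 in the mutant (SD, n = 3). Its change was -1.93 ± 0.09 in wild type (SE, limma adjusted p = 2.6e-09) and -2.08 ± 0.09 in the mutant (1.8e-09), and no array stood apart. psbD, for the D2 reaction centre protein, fell by 0.96 in wild type (limma adjusted p = 3.2e-05) and by 0.91 in the mutant (5.4e-05).

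psbA encodes D1, the reaction centre protein that is replaced continually in light. It read 1765, 1911 and 2239.6 on the wild type DMSO arrays, 3172, 2665 and 2427 on the wild type tZ arrays, 2028, 2379 and 2268 on the mutant DMSO arrays and 1916, 2179.6 and 2972 on the mutant tZ arrays. In wild type the tZ arrays were all higher, and in the mutant the groups overlapped. psbA's log2 change after tZ was 0.48 ± 0.15 in wild type (SE, n = 3 against 3, limma adjusted p = 0.016) and 0.06 ± 0.15 in the mutant (limma adjusted p = 0.8). The wild type call is lost without tZ replicate 1 (0.37, limma adjusted p = 0.079) or DMSO replicate 1 (0.40, 0.066), and after quantile normalization (0.35, 0.074). psbC, for the antenna protein CP43, did not pass in either genotype, with 0.18 in wild type (limma adjusted p = 0.21) and -0.04 in the mutant (0.81).

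psbE and psbF encode the 2 subunits of cytochrome b559. psbE read 341, 303 and 301 on the wild type DMSO arrays, 886, 740.5 and 747 on the wild type tZ arrays, 336, 340.5 and 301 on the mutant DMSO arrays and 759, 819 and 835 on the mutant tZ arrays. All 6 tZ arrays lay above all 6 DMSO arrays by more than 2-fold. psbE's log2 change after tZ was 1.3 ± 0.08 in wild type (SE, n = 3 against 3, limma adjusted p = 2.4e-08) and 1.28 ± 0.08 in the mutant (limma adjusted p = 2.9e-08). psbF rose less, by 0.28 in wild type (limma adjusted p = 0.0062) and 0.32 in the mutant (0.003), calls that are lost after quantile normalization (0.10 and 0.14).

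The remaining small subunits fell or did not pass, except for psbH, which rose in wild type. psbJ fell by 0.50 in wild type (limma adjusted p = 0.00063) and by 0.38 in the mutant (0.0048), the latter turning to 0.06 when arrays are centred on the 45 genes. psbZ fell by 0.49 (0.00072) and by 0.81 (7.5e-06). psbK and psbI had a call in the mutant and none in wild type; in the mutant they fell by 0.64 (0.002) and by 0.46 (0.0012); the wild type values were -0.25 and -0.11. Without wild type DMSO replicate 1, psbK also passed in wild type (-0.46, limma adjusted p = 0.0026), and after quantile normalization both psbK (-0.38, 0.024) and psbI (-0.28, 0.017) did. With arrays centred on the 45 genes the wild type value of psbI turned to 0.33 and passed. psbH rose in wild type by 0.34 (0.019) and was at -0.09 in the mutant (0.55). The wild type call for psbH is lost without tZ replicate 1 (0.29, limma adjusted p = 0.079) or DMSO replicate 1 (0.26, 0.083), and after quantile normalization (0.28, 0.053). psbL and psbM passed in neither genotype, but psbL did in the mutant after quantile normalization (-0.22, limma adjusted p = 0.049) and, at 0.43, in wild type with centring on the 45 genes. With that centring psbH (0.35, limma adjusted p = 0.027) and psbM (0.40, 0.043) passed in the mutant.

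The cytochrome b6f complex carries electrons from plastoquinone to plastocyanin. In each genotype 1 of its 6 genes rose and 4 fell, with a median change of -0.36 in wild type and -0.35 in the mutant. petL, a small subunit, was the gene that rose. It read 240.04, 214 and 195 on the wild type DMSO arrays, 602, 619 and 661 on the wild type tZ arrays, 321, 319 and 303 on the mutant DMSO arrays and 675, 783 and 670.1 on the mutant tZ arrays. The tZ arrays lay more than 2-fold above the DMSO arrays of their genotype, and under DMSO the mutant arrays were all above the wild type ones. petL's log2 change after tZ was 1.5 ± 0.08 in wild type (SE, n = 3 against 3, limma adjusted p = 7.2e-09) and 1.15 ± 0.08 in the mutant (limma adjusted p = 7e-08).

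petD, for subunit IV, had the largest fall of the complex. It read 216, 201 and 163 on the wild type DMSO arrays, 69.6, 59.7 and 76.1 on the wild type tZ arrays, 161, 258 and 181 on the mutant DMSO arrays and 225, 68.2 and 51.7 on the mutant tZ arrays. The wild type groups were apart, while mutant tZ replicate 1 lay among the mutant DMSO arrays. petD's log2 change after tZ was -1.37 ± 0.36 in wild type (SE, n = 3 against 3, limma adjusted p = 0.0059) and -0.98 ± 0.36 in the mutant (limma adjusted p = 0.039). The mutant change was -1.57 without that array (limma adjusted p = 1.7e-05), and the mutant call for petD is lost without wild type tZ replicate 3, mutant tZ replicate 2 or 3, or mutant DMSO replicate 2 or 3 (changes of -1.04 to -0.60, adjusted p of 0.051 to 0.19). It is also lost with only the mutant groups in the fit (limma adjusted p = 0.11), after quantile normalization (0.054) and with variances fitted without a trend (0.058).

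petA, for cytochrome f, changed by -0.28 in wild type (limma adjusted p = 0.01) and -0.29 in the mutant (0.0079), and petB, for cytochrome b6, by -0.44 in wild type (limma adjusted p = 0.0011) and -0.42 in the mutant (0.0015). All of these falls turn to positive values of 0.01 to 0.17 when arrays are centred on the 45 genes, and that of petA in wild type does not pass without DMSO replicate 3 (-0.21, limma adjusted p = 0.051). petN, a small subunit, fell by 0.71 in wild type (limma adjusted p = 0.037) and by 0.94 in the mutant (0.0082). The wild type call for petN is lost without any of the wild type tZ arrays, or without DMSO replicate 2 or 3 (changes of -0.74 to -0.57, limma adjusted p of 0.064 to 0.14), after quantile normalization (0.054) and with variances fitted without a trend (0.056). Without mutant tZ replicate 1 its mutant change was -1.34. petG did not pass (-0.15 and -0.12), but without that array its mutant change was -0.42 (limma adjusted p = 0.0074).

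The NADH dehydrogenase-like complex carries cyclic electron flow around photosystem I. In each genotype 8 of its 10 genes fell and 1 rose, with a median change of -0.52 in wild type and of -0.67 in the mutant. ndhG, a membrane subunit, had the largest fall of all 45 genes. It read 961, 1011 and 729.6 on the wild type DMSO arrays, 119, 87.7 and 122 on the wild type tZ arrays, 968, 1200.1 and 768 on the mutant DMSO arrays and 400.4, 118 and 102 on the mutant tZ arrays. Every tZ array lay below every DMSO array, and mutant tZ replicate 1 was the highest of the tZ arrays by far. ndhG's log2 change after tZ was -2.93 ± 0.36 in wild type (SE, n = 3 against 3, limma adjusted p = 1.3e-05) and -2.43 ± 0.36 in the mutant (limma adjusted p = 7.2e-05). This was 7.61-fold lower in wild type and 5.39-fold lower in the mutant, and without replicate 1 the mutant change was -3.02.

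ndhK, a subunit of the arm that faces the stroma, was the gene that rose. It read 130.2, 133 and 117 on the wild type DMSO arrays, 211, 188 and 177 on the wild type tZ arrays, 139, 113 and 129.7 on the mutant DMSO arrays and 218, 162 and 164 on the mutant tZ arrays. All tZ arrays were above all DMSO arrays of either genotype. ndhK's log2 change after tZ was 0.56 ± 0.11 in wild type (SE, n = 3 against 3, limma adjusted p = 0.00087) and 0.47 ± 0.11 in the mutant (limma adjusted p = 0.0035).

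Other genes of the complex fell by less. ndhH, a subunit of the same arm, fell by 0.93 in each genotype (limma adjusted p = 0.00011 and 0.00012). ndhE fell by 0.76 in wild type (0.00066) and by 0.45 in the mutant (0.021), the latter call being lost without mutant tZ replicate 2 or 3, or mutant DMSO replicate 2 or 3 (changes of -0.42 to -0.38, adjusted p of 0.065 to 0.090). The membrane subunit genes ndhA (-0.53 in wild type (limma adjusted p = 2.1e-05) and -0.67 in the mutant (2.4e-06)) and ndhD (-0.37 in wild type (limma adjusted p = 0.013) and -0.73 in the mutant (8.5e-05)) fell in both, as did ndhI (-0.50 in wild type (limma adjusted p = 8.3e-05) and -0.67 in the mutant (6.1e-06)) and ndhC (-0.40 in wild type (limma adjusted p = 0.00086) and -0.48 in the mutant (0.00023)), the wild type falls of ndhD and ndhC turning to 0.07 and 0.04 when arrays are centred on the 45 genes. The wild type call for ndhD is lost without tZ replicate 3 (-0.32, limma adjusted p = 0.060) or DMSO replicate 3 (-0.28, 0.067).

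ndhF, for a membrane subunit, read 121, 79.4 and 53.7 on the wild type DMSO arrays, 32.8, 16 and 36.8 on the wild type tZ arrays, 105, 164 and 103 on the mutant DMSO arrays and 155, 33.6 and 19.4 on the mutant tZ arrays. The wild type groups were apart but widely scattered, and the mutant groups overlapped through tZ replicate 1. ndhF's log2 change after tZ was -1.28 ± 0.48 in wild type (SE, n = 3 against 3, limma adjusted p = 0.046) and -1.14 ± 0.48 in the mutant (limma adjusted p = 0.077). The wild type call for ndhF is lost without any 1 array except wild type DMSO replicate 3 and mutant tZ replicates 1 and 3 (changes of -1.44 to -1.02, limma adjusted p of 0.052 to 0.16), and without mutant tZ replicate 1 the mutant change was -1.87 (limma adjusted p = 0.00039). The wild type call for ndhF is also lost with a pseudocount of 50, quantile normalization, a common median, array weights or variances without a trend (changes of -1.29 to -0.76, limma adjusted p of 0.054 to 0.071). In the mutant ndhF passed when the dimmest 40% of probe sets were left out (limma adjusted p = 0.036).

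ATP synthase uses the proton gradient to make ATP. In wild type 1 of its 6 genes rose and 2 fell, with a median change of -0.02, and in the mutant 1 rose and 3 fell, with a median of -0.22. Over all probe sets 43.6% passed in wild type and 42.8% in the mutant. atpF, for a stalk subunit, read 291, 359 and 444 on the wild type DMSO arrays, 909.8, 987 and 917 on the wild type tZ arrays, 577, 359 and 503 on the mutant DMSO arrays and 883, 962 and 983 on the mutant tZ arrays. The tZ arrays were higher and tight in each genotype, and the DMSO arrays were scattered. atpF's log2 change after tZ was 1.36 ± 0.15 in wild type (SE, n = 3 against 3, limma adjusted p = 5.9e-06) and 0.98 ± 0.15 in the mutant (limma adjusted p = 0.00012).

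atpI, for the membrane subunit that channels protons, read 91, 97.2 and 116 on the wild type DMSO arrays, 43.7, 40.5 and 44.2 on the wild type tZ arrays, 149, 167 and 148 on the mutant DMSO arrays and 107, 51.4 and 41.7 on the mutant tZ arrays. The tZ arrays were lower without overlap within each genotype, though mutant tZ replicate 1 reached the wild type DMSO arrays. atpI's log2 change after tZ was -1.07 ± 0.22 in wild type (SE, n = 3 against 3, limma adjusted p = 0.00094) and -1.19 ± 0.22 in the mutant (limma adjusted p = 0.00041). Without that array the mutant change was -1.54.

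Of the other subunits, atpE, for the epsilon subunit, fell by 0.30 in wild type (limma adjusted p = 0.0095) and by 0.37 in the mutant (0.002), falls that turn to 0.15 and 0.07 when arrays are centred on the 45 genes. atpA, for the alpha subunit, fell by 0.83 in the mutant (0.01) and did not pass in wild type (-0.14), where DMSO replicate 1 read 1276 and the other DMSO arrays 2186 and 2955. atpB, for the beta subunit, and atpH, for the ring subunit, passed in neither genotype. With arrays centred on the 45 genes, both passed in each genotype. atpB was then at 0.54 in wild type (limma adjusted p = 0.0046) and 0.38 in the mutant (0.035). atpH was at 0.65 (0.0097) and 0.48 (0.047).

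rbcL encodes the large subunit of Rubisco, the enzyme that fixes carbon dioxide. It read 189.7, 217 and 368 on the wild type DMSO arrays, 553, 623 and 515 on the wild type tZ arrays, 361, 306 and 536 on the mutant DMSO arrays and 633, 562 and 519 on the mutant tZ arrays. In wild type the tZ arrays were all higher, and in the mutant 1 DMSO array reached the tZ arrays. rbcL's log2 change after tZ was 1.15 ± 0.21 in wild type (SE, n = 3 against 3, limma adjusted p = 0.00052) and 0.53 ± 0.21 in the mutant (limma adjusted p = 0.061). The tZ groups of both genotypes were alike in mean (564 ± 55.1 and 571 ± 57.5), and the DMSO means were 258 ± 96 in wild type and 401 ± 120.1 in the mutant (SD, n = 3). Leaving out wild type DMSO replicate 1 (0.53, limma adjusted p = 0.044) or 3 (0.53, 0.016), or mutant DMSO replicate 3 (0.76, 0.0103), brought rbcL past the threshold in the mutant. With all arrays kept, rbcL also passed there with a common median (0.57, limma adjusted p = 0.042), without the dimmest 40% of probe sets (0.029), with array weights (0.030) and with only the mutant groups in the fit (0.040).

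**Figure D3:**
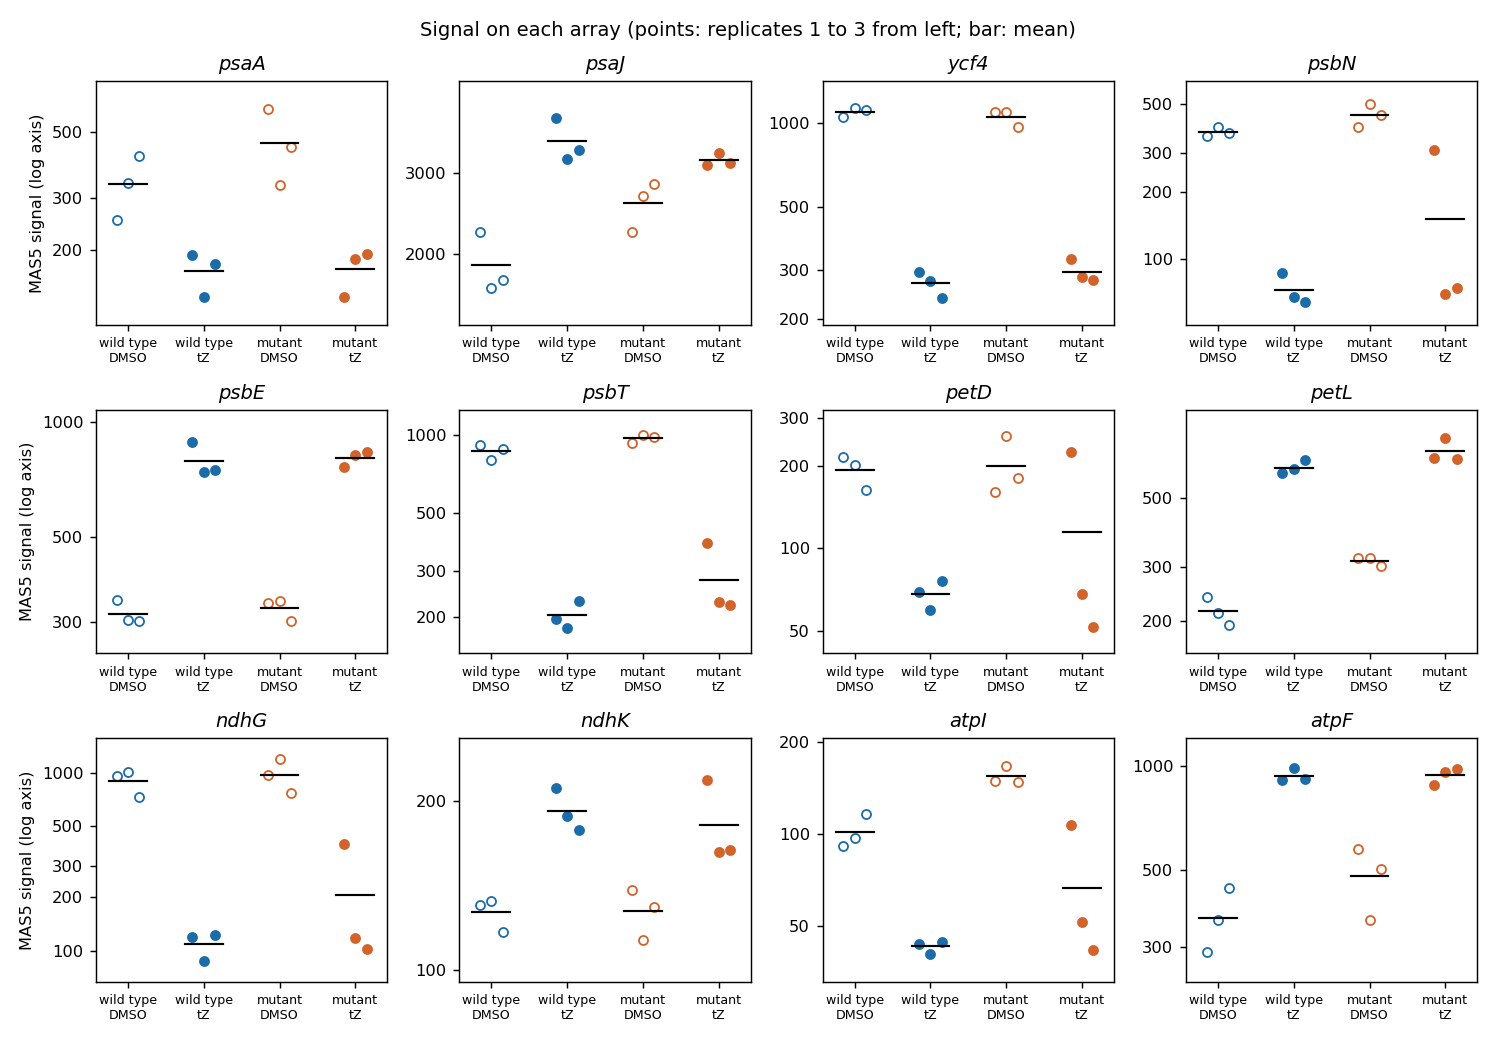
MAS5 signal (log axis) of the genes with the most negative and most positive wild type change in each complex with at least 5 measured genes, and of ycf4 and psbT, on each of the 12 arrays, with open points for DMSO, filled points for tZ and bars for group means. The wild type tZ and DMSO groups are apart for all 12 genes shown. Mutant tZ replicate 1 lies more than 1.5-fold above both of its partners for psbN, psbT, petD, ndhG and atpI.

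Genes of the same transcription unit were set against each other next, since they are thought to start from shared transcripts. For each of 27 pairs of neighbouring measured genes within a unit, the difference between the 2 genes in their change after tZ, averaged over the genotypes, was tested by an exact permutation of treatment within genotype (two-sided, 400 relabellings, smallest possible p 0.005). This comparison was chosen after the results had been seen. It shares with the other tZ comparisons the division of the arrays by treatment. Where the probes lie along each transcript was not analysed here, and the 5' to 3' ratios differ between the same arrays. Their part in the differences between neighbours was not tested. In 23 of the 27 pairs the genes differed at an adjusted p below 0.05 (Benjamini-Hochberg over the 27), and in 12 by at least 1 on the log2 scale; 23 also passed after quantile normalization and after scaling to a common median. The smallest p was reached by 20 of 27 neighbour pairs (74.1%), and by 53.5% of 932 pairs of genes from different units. The median absolute difference was 0.96 for neighbours and 0.78 for the other pairs, so the median was not smaller between neighbours. These pairs share genes and are not independent.

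The unit with most measured genes, ndhH to ndhD, holds 6 ndh genes and psaC. All 7 passed in both genotypes, 6 lower and psaC higher. The genes ndhA and ndhI at -0.53 and -0.50 in wild type moved alike (mean difference -0.02, exact permutation p = 0.79). Next to them ndhG, at -2.93, differed from ndhI by 2.09 and from ndhE by -2.07 (exact permutation p = 0.005 for each, adjusted 0.0068). psaC lay 1.15 above ndhE and 1.1 above ndhD, with the same p.

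In the psbB unit, psbB and psbT fell alike (mean difference -0.08, exact permutation p = 0.54), while psbH, the next gene on their strand, lay 2.05 above psbT (exact permutation p = 0.005, adjusted 0.0068) and was at 0.34 in wild type and -0.09 in the mutant. petB, the next gene, lay 0.55 below psbH (exact permutation p = 0.01, adjusted 0.013). petB and petD, at -0.44 and -1.37 in wild type, differed by 0.75 (exact permutation p = 0.065, adjusted 0.070). psbN, on the opposite strand between psbT and psbH, was at -2.23 in wild type, where psbT was at -2.04.

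In the unit of psaI, ycf4 and petA, ycf4 stood apart from both others. ycf4 lay 2.21 below psaI and 1.61 below petA (exact permutation p = 0.005, adjusted 0.0068 for each). cemA, which lies between ycf4 and petA, was left out of this test and was also lower after tZ. Its mean signal went from 1505 ± 100 to 877 ± 40 in wild type and from 1653 ± 189 to 951 ± 15.5 in the mutant (SD). Along the atp unit the change was higher at each step from atpI to atpF and lower again at atpA: atpI lay 1.25 below atpH, atpH 1.05 below atpF, and atpF 1.66 above atpA, at the same p. In the psbE unit the change declined step by step from psbE to psbF (0.99), psbL (0.39) and psbJ (0.35), each step at the same p. psbK and psbI differed by -0.16 (exact permutation p = 0.065, adjusted 0.070).

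Of the 11 units with at least 2 genes, 6 held genes that rose and genes that fell in wild type and 4 did so in the mutant. In 6 neighbour pairs 1 gene rose and the other fell in wild type.

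**Figure D4:**
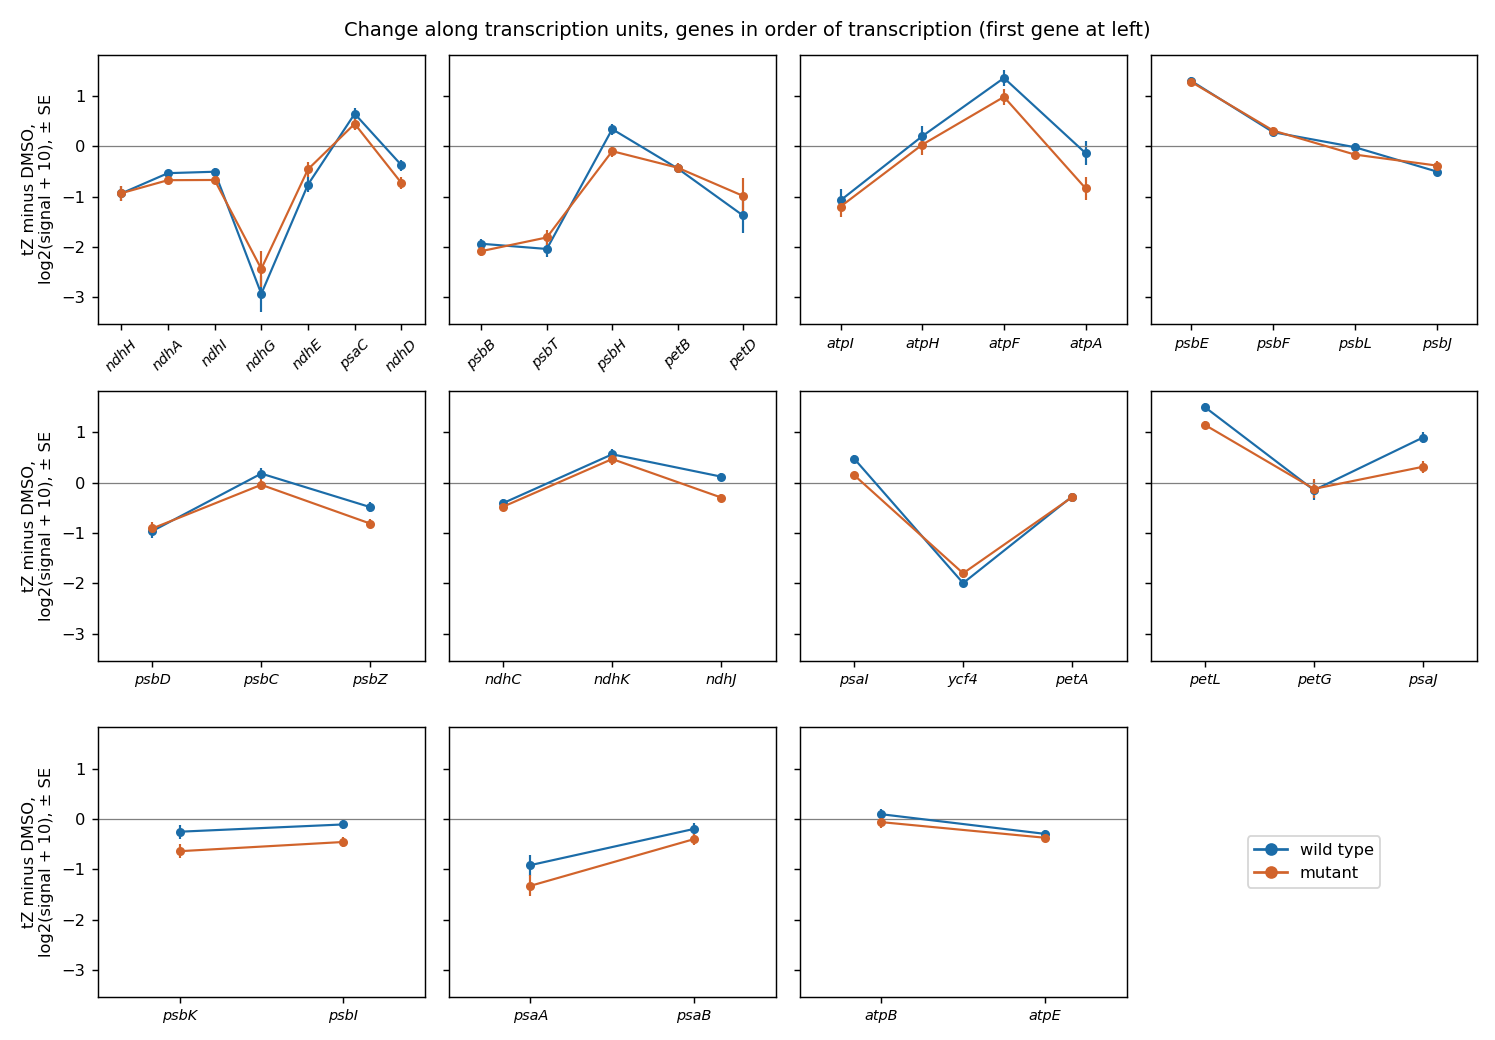
Log2 change after tZ (± SE, 3 arrays a group) of the genes of each unit with at least 2 measured genes, in order of transcription, in wild type (blue) and in the mutant (orange). In both genotypes ndhG and ycf4 lie below the plotted genes on either side, and psbH lies above psbT. When arrays are centred on the 45 genes, 13 of the 45 change sign in each genotype, among them petA, petB, atpE, psaB, petG and psbL in both.

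The next question was whether the mutant answered tZ differently. The 2 genotypes were measured on separate arrays, and changes across the 45 genes ran in parallel (Pearson r = 0.967, Spearman rho = 0.945, a description over 45 genes that share arrays and transcripts). Both genotypes also share the division of the 5' to 3' ratios by treatment, so this likeness cannot tell treatment and array set apart. The sign was the same for 41 of the 45. In both genotypes 7 genes rose (atpF, ndhK, petL, psaC, psaJ, psbE and psbF) and 21 fell, and none passed in opposite directions. psaI, psbA, psbH and rbcL rose and ndhF fell in wild type with no call in the mutant, and atpA, ndhJ, psaB, psbI and psbK fell in the mutant with no call in wild type. A call in 1 genotype alone does not show a difference between genotypes, for which the interaction was tested.

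The interaction passed for none of the 45 genes in limma, as for 0.0% of all probe sets. At an unadjusted p below 0.05 there were 8 genes, against 7.03% of all probe sets, all 8 with a lower change in the mutant, against 3.54% of all probe sets in that direction. The median interaction was -0.15, and it was above 0 for 15 of the 45, where it was so for 51.0% of all probe sets. Part of these signs rest on mutant tZ replicate 1. Without it the interaction turned below 0 for ndhG (-0.10), ndhF (-0.59), psbN (-0.26), psbT (-0.02), petD (-0.20), petG (-0.27) and ycf3 (-0.31). For petN and atpI, below 0 also with that array, it was then -0.63 and -0.47. ndhJ, for a subunit of the stroma-facing arm of the NADH dehydrogenase-like complex, had the smallest p. It read 526, 585 and 567 on the wild type DMSO arrays, 609.96, 659 and 559.5 on the wild type tZ arrays, 669, 697 and 709 on the mutant DMSO arrays and 531, 536 and 625 on the mutant tZ arrays. In wild type the groups overlapped, and in the mutant the tZ arrays were all lower. Its interaction was -0.41 ± 0.11 (SE, limma adjusted p = 0.43), from 0.12 in wild type (limma adjusted p = 0.25) and -0.29 in the mutant (limma adjusted p = 0.0069), the latter turning to 0.15 when arrays are centred on the 45 genes. With that centring ndhJ passed in wild type (0.56, limma adjusted p = 0.00049). The other 7 were psaJ (-0.58), psbH (-0.44), ndhD (-0.35), petL (-0.35), psbI (-0.35), psaI (-0.33) and psbZ (-0.33).

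Without added cytokinin, no gene passed between mutant and wild type in limma, where 0.0132% of all probe sets did. The values lay mostly on 1 side: 37 of the 45 were higher in the mutant, where 47.7% of all probe sets were, and the median difference was 0.17 against -0.01 for all probe sets. These genes share arrays and transcripts, so they are not replicates of the genotype. Their median log2 signal per array overlapped between wild type DMSO (9.80 to 10.00) and mutant DMSO (9.93 to 10.01). At an unadjusted p below 0.05 there were 10 genes, all higher in the mutant, against 4.66% of all probe sets in that direction. For 12 genes all mutant arrays lay above all wild type arrays, against 6.0% of all probe sets, and for none did they all lie below, against 6.42%. petL, whose arrays are given above, differed by 0.52 ± 0.08 (SE, limma adjusted p = 0.064), from 216 ± 22.8 to 314 ± 9.99 (SD, n = 3). It passed when the dimmest 40% of probe sets were left out (limma adjusted p = 0.026) and when wild type DMSO replicate 1 was left out (0.60, 0.024). The largest differences that did not pass were those of rbcL (0.63, limma adjusted p = 0.38) and atpI (0.57, 0.43). Of 32 other plastid probe sets, 28 were also higher in the mutant under DMSO, with a median of 0.16 and no call, and at an unadjusted p below 0.05 there were 9 higher and 1 lower. This comparison and the interaction share the DMSO arrays. The ubiquitin 5' to 3' ratio also divided the DMSO arrays by genotype, and its part in these differences was not tested.

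After tZ, again no gene passed between the genotypes, where 0.0352% of all probe sets did. The mutant was higher for 23 of the 45 genes, where 49.3% of all probe sets were, and the median difference was 0.01. These include the 9 genes that read high on mutant tZ replicate 1. Without that array the difference was below 0 for petD (-0.17), petN (-0.14), ndhF (-0.06), petG (-0.02) and psbN (-0.01). It stayed above 0 for ndhG (0.01), atpI (0.09), ycf3 (0.11) and psbT (0.15). An unadjusted p below 0.05 was reached by psbT (0.40 ± 0.16, SE, limma adjusted p = 0.79) and by psbI (-0.20 ± 0.09, limma adjusted p = 0.9), where 5.56% of all probe sets did so. The psbT arrays overlapped, and mutant tZ replicate 1 was the highest of the tZ arrays. The GAPDH 5' to 3' ratio divided the tZ arrays by genotype, and its part in the genotype differences was not tested.

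**Figure D5:**
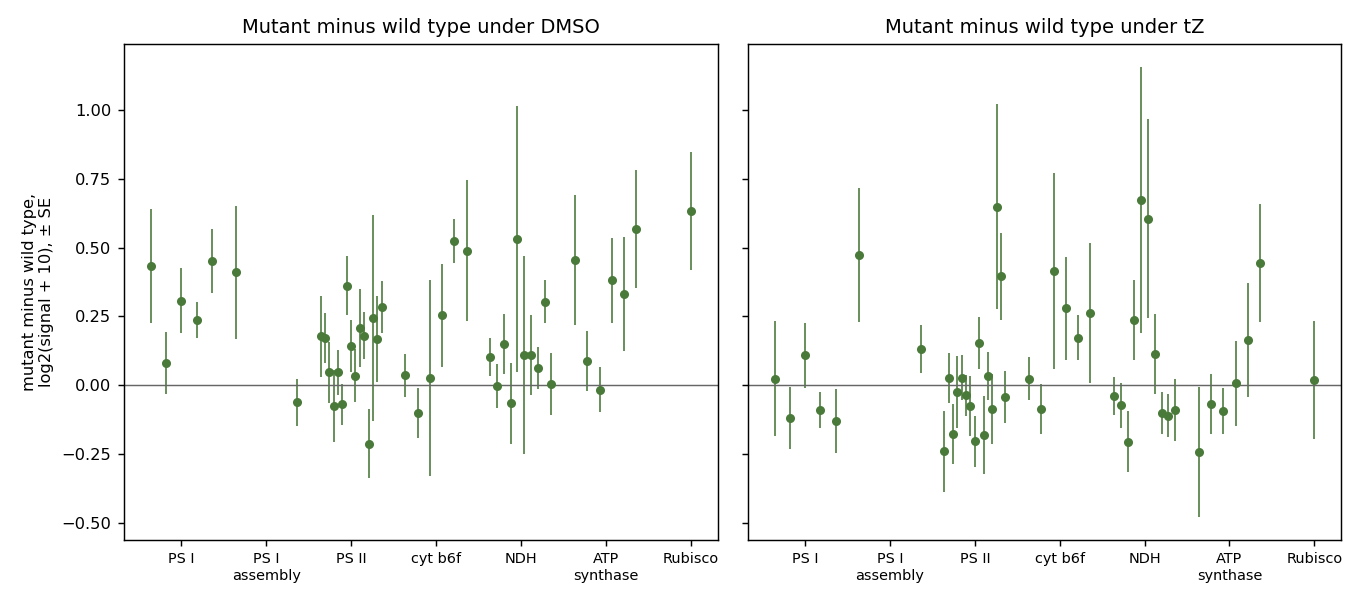
Mutant minus wild type in log2(signal + 10), ± SE (3 arrays a group), with 1 point per gene grouped by complex, under DMSO (left) and under tZ (right). Under DMSO 37 of 45 points lie above 0 and under tZ 23 do, and none passed the test in either.

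Other transcripts of the plastid were also called in both directions after tZ. Of 32 other plastid probe sets, for ribosomal proteins, polymerase subunits and other genes, 8 rose and 12 fell in wild type (median -0.29), and 5 rose and 14 fell in the mutant (median -0.30). Their wild type changes ran from -1.02 for rps16 to 1.01 for rpl16, both for ribosomal proteins. The probe set that names both copies of ndhB did not pass (-0.30 in wild type, limma adjusted p = 0.51). Of 18 mitochondrial probe sets, 3 were called higher and 5 lower in wild type and 2 higher and 6 lower in the mutant. Over all probe sets 43.6% were called in wild type and 42.8% in the mutant. For 11 of the 18 at least 1 group mean was no higher than 11.2, the highest signal of the absent controls, so no size is given for the list. The brightest, nad4, a subunit of the respiratory complex I, and cox1, of cytochrome oxidase, were at 0.75 and 0.81 in wild type (limma adjusted p = 3.7e-05 and 0.0015).

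Nuclear genes for subunits of the same complexes, light-harvesting proteins and accessory factors could be followed only in part, since 14 of 105 listed were measured by name. In wild type 3 rose and 5 fell, with a median of -0.11, and in the mutant 3 rose and 6 fell, with a median of -0.10. The ends were CRR28, a factor that edits ndh transcripts, at -0.68 (limma adjusted p = 0.0047), and PSBY, a photosystem II subunit, at 2.33 (limma adjusted p = 4.4e-09) in wild type. In the mutant they were at -0.59 (limma adjusted p = 0.012) and 2.23 (limma adjusted p = 6.8e-09). None of 12 sigma factor symbols, 26 symbols for polymerase-associated proteins and phage-type polymerases, or 24 symbols for plastid RNA processing was measured by name.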

How the data were processed

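Biotin-labelled RNA from 12 samples was hybridised to ATH1 arrays, in 4 groups of 3 taken from the labels. MAS5 signals were deposited (unit intensity, linear scale), per the submitters' processing notes. Its version, the scaling target and the primer used in labelling are not given in the sources used here. Of 22810 probe sets 64 were controls and 22746 were tested. Array medians ran from 33.8 to 35.7, and precision is limited by having 3 arrays a group.

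With limma 3.58.1 (R 4.3.3), a mean was fitted to each group on log2(signal + 10), using the 12 arrays together for the residual spread and a variance prior that depends on signal. The 5 contrasts were tZ against DMSO in each genotype, their difference, and mutant against wild type under each treatment, two-sided, adjusted over all tested probe sets within a contrast. Neighbouring genes were compared with an exact permutation test. Values with ± are SD over a group's 3 arrays unless SE is given. The fits and the permutation test were tested on simulated data with known changes. Figures were made in matplotlib 3.10.9 and tables handled in pandas 2.3.3.

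Gene symbols came from the array annotation and their genome from the RefSeq locus table (TAIR10.1), which was used only for names and gene order. Mitochondrial genes were matched by symbol. Transcription units follow general knowledge of the plastid genome, not a file. Values on every array are given for the genes with the most negative and most positive wild type change in each complex, for rbcL and psbA, and for the smallest p in the interaction and in each comparison of genotypes; ndhF was added after its values were seen. The genes, lists and comparisons were chosen with earlier results of these data known. Alternatives changed the pseudocount (1 or 50), the normalization (quantile, common median, centring on the 45 genes), the probe sets (without the dimmest 40%), the fit (replicate block, array weights, no variance trend, only the groups compared) or left out an array.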

Additional observations from a re-analysis of the deposited data

How the results depend on the processing

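Under the 21 alternatives other than centring on the 45 genes, 30 to 33 genes passed in wild type where no array was left out and 29 to 33 where 1 was, against 33 as reported. In the mutant the ranges were 31 to 35 and 30 to 34, against 33. Calls held under all 21 for 26 of 33 genes in wild type and 28 of 33 in the mutant. Centring on the 45 genes gave 27 calls in wild type (17 higher, 10 lower) and 25 in the mutant (15 higher, 10 lower), because a change is then relative to the other plastid genes. Some calls were ended by it and others were new. The sign of 13 changes turned there in each genotype, and among genes called before or after centring it turned for ndhD 0.073, petB 0.0076, ndhC 0.039, atpE 0.15, petA 0.17, psbL 0.43 and psbI 0.33 in wild type, and for psbH 0.35, petB 0.023, psbM 0.40, psbC 0.40, psaB 0.044, ndhJ 0.15, atpE 0.072, atpB 0.38, petA 0.16 and psbJ 0.065 in the mutant (log2 changes under centring). After quantile normalization petA fell by more (-0.45 in each genotype), atpE by less (-0.18 and -0.21), psbJ in the mutant by more (-0.57), and psaI in wild type rose by 0.29; the cause was not tested. The interaction and the comparison of genotypes after tZ gave 0 calls among the 45 under every alternative run. The comparison under DMSO gave 1 call, petL, when the dimmest 40% of probe sets were left out, where fewer probe sets are adjusted over, and 0 to 1 calls when 1 array was left out. Neighbour pairs that passed numbered 22 to 24 of 27 under pseudocounts, normalizations and left-out arrays. The fit with only the groups compared was not run for the interaction, which needs all 4 groups.

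Replicate numbers are shared by the groups, but the labels do not say that a number marks a shared batch. Deviations of same-numbered arrays from their group means correlated at -0.085 to 0.069 over all probe sets. Over the plastid photosynthesis genes alone the correlations ran from -0.64 (mutant DMSO and mutant tZ, replicate 2) to 0.57 (wild type DMSO and mutant DMSO, replicate 3). Those genes share transcripts and their correlations took both signs, so these values cannot decide if a number marks a shared batch. With a replicate block 33 genes passed in wild type (11 higher, 22 lower), 33 in the mutant (6 higher, 27 lower) and 0 in each of the other comparisons. In the mutant the block ended the call for psaJ (0.32, limma adjusted p = 0.058) and gave one for ndhF (-1.14, 0.0498), and it changed no other call.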
